A study of Mus musculus with 6 samples.

Results

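The genes described here are those of the Wnt pathway, from its ligands, receptors and antagonists to feedback targets. They were taken by symbol from the count files: every Wnt, Fzd, Sfrp, Dkk and Rspo gene, together with 15 further genes (Lrp5, Lrp6, Lgr4, Lgr5, Axin1, Axin2, Lef1, Tcf7, Tcf7l1, Tcf7l2, Nkd1, Znrf3, Rnf43, Porcn and Wls). The rule found 56 of the 24393 genes listed, and 49 of them had enough counts to be tested. The cells were mouse embryonic stem cells of the KH2 line, which takes up a gene under a doxycycline switch at a fixed locus, of strain C57/BL/6. The 3 libraries of genotype HOXA13 came from cells carrying the human HOXA13 gene with a FLAG tag, and the 3 libraries of genotype CONTROL came from control cells. The culture protocol given for all libraries was growth on M15 cells, a feeder line of mesodermal origin, in medium without LIF and with Noggin, CHIR, Activin-A and basic fibroblast growth factor. CHIR is an inhibitor of GSK3, the kinase that marks beta-catenin for destruction, and whether the medium of the further day after sorting held it is not given in the sources used here. Doxycycline was given at 1.25 µg/ml from day 4, cells that stained for both CXCR4 and E-cadherin were collected by cell sorting on day 6, and sorted cells were kept for a further day with doxycycline. Whether the CONTROL cultures received doxycycline is not given in the sources used here. The HOXA13 cells were chosen from targeted clones, so clone and transgene cannot be told apart, and where separate differentiation cultures are not stated the p-values measure only the spread between these samples.

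Wnt proteins are secreted glycolipoproteins. They are acylated by Porcn, carried to the cell surface by Wls, and bound by Frizzled receptors with the co-receptors Lrp5 and Lrp6. Binding stops the destruction of beta-catenin, which then acts with TCF/LEF factors on target genes, and some of these targets, such as Axin2, Nkd1, Rnf43 and Znrf3, feed back to dampen the pathway. Wnt signals are known for their part in mesendoderm formation in the embryo and for stem cell maintenance in the intestinal crypt.

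Total counts per library lay between 12279884 and 17331638, and values are given as CPM, the counts divided by TMM-scaled library sizes and set to a common total, on which 3 counts correspond to between 0.176 and 0.240 CPM. The row under the human identifier ENSG00000106031, which the files do not pair with a symbol, had 0 counts in each CONTROL library and between 2497 and 7666 in the HOXA13 libraries, while mouse Hoxa13 had at most 10 counts in any library. CONTROL replicate 2 stood apart from the other CONTROL libraries. Its Spearman correlation with them across tested genes, which are not independent, was 0.908 and 0.931, against 0.977 between the other two. The summed level of 9 pluripotency markers was 118, 1379 and 200.1 CPM across CONTROL (replicates 1, 2 and 3) and lay between 438 and 739 CPM in HOXA13. The summed level of 12 mesenchyme markers was 1750, 70.8 and 611 CPM in the CONTROL libraries against a range between 46.0 and 293 CPM in HOXA13. Col1a1 gave 1163 of the 1750 CPM in CONTROL replicate 1. Of the 11 mesenchyme markers tested, 1 (Thy1) was higher and 1 (Postn) lower in HOXA13 without overlap, and neither edgeR nor DESeq2 called any (0 and 0), with Twist1 alone at an unadjusted edgeR p under 0.05 (0.0300). The median of their log2 fold changes was -1.62, with Thy1 and Dcn at 1.03 and 1.19. The summed level of 10 epithelial markers was between 1694 and 5801 CPM in the CONTROL libraries against a range between 6994 and 8800 CPM in HOXA13. The 10 markers of mesonephric mesenchyme, the origin of the feeder line, summed to between 66.0 and 90.9 CPM in the CONTROL libraries against a range between 40.0 and 72.5 CPM in HOXA13. Gata3, at a log2 fold change of -0.18, gave 61.0, 34.0 and 48.0 CPM of the CONTROL sums (replicates 1, 2 and 3). Wt1 and Hoxa11 were lower in HOXA13 without overlap, at -2.67 and -1.16, and 0 markers were higher without overlap. The median over the 8 tested markers was -0.71, and neither edgeR nor DESeq2 called any. The 11 markers of definitive endoderm, the cell type aimed for, summed to between 120 and 192 CPM in CONTROL and between 79.7 and 121 CPM in HOXA13. In this list Eomes, Gata4 and Gata6 had the highest mean levels, with log2 fold changes of -1.32, -0.31 and -1.12, and DESeq2 called Eomes alone (adjusted p = 0.00575). The low members of the list included Mixl1, Cxcr4, Foxa1 and Sox17 at 2.09, 0.88, 0.53 and 0.52 and Foxa2 at -0.02, with no call, and the median over the 9 tested markers was -0.02. Sox17 lay between 0.975 and 4.84 CPM over all libraries, Foxa2 between 1.76 and 5.04 CPM, and Cer1 had no count. Of the genes the sort was based on, Cdh1 (E-cadherin) had 192, 1292 and 702 CPM in the CONTROL libraries against 1690 to 1893 CPM in HOXA13, and Cxcr4 had 2.25 to 5.04 CPM against 4.12 to 11.3 CPM. In these bulk libraries, fewer cells of a type and less RNA per cell cannot be told apart.

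Promoter sequences are shown for members that DESeq2 called in the comparison of HOXA13 with CONTROL, because TCF/LEF factors recognise a short core that can be looked for directly. RefSeq windows of 300 bases (250 before and 50 after a start site, table build GRCm38.p6) were given for 36 of the 56 members and for 7 of the 10 that DESeq2 called. Each was located in mm9 by exact match and is written 5′ to 3′ on the strand of the gene. Capitals mark the TCF/LEF cores CTTTGA and CTTTGT and the letters TTTATNG, a form bound by posterior HOX proteins, on either strand. In the windows shown no match overlapped another. Dkk1 (chr19:30623937-30624236, minus strand), Fzd7 (chr1:59538741-59539040, plus strand), a start of Lef1 inside the annotated gene, 45823 bases from its 5′ end (chr3:130858962-130859261, plus strand), a start of Nkd1 that lies 6289 bases inside the annotated gene (chr8:91051282-91051581, plus strand) and the upstream start of Rnf43 (chr11:87476339-87476638, plus strand) were chosen as windows with and without such letters.
Dkk1: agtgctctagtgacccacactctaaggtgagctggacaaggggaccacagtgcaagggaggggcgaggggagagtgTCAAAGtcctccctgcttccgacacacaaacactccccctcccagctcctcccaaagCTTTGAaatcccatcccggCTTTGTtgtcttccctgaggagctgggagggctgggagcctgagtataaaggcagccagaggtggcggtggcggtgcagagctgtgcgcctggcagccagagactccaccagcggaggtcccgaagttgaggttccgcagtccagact
Fzd7: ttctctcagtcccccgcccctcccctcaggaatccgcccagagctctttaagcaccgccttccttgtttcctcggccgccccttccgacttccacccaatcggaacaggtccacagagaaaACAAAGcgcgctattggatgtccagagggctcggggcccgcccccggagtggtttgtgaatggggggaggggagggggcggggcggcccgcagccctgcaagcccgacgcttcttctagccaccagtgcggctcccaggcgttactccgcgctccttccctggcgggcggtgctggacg
Lef1: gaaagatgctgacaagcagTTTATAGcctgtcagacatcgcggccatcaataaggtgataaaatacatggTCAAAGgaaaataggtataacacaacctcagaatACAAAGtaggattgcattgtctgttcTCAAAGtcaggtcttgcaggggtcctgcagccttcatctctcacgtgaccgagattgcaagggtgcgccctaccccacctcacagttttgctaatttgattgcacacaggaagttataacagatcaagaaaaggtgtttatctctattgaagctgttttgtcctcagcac
Nkd1: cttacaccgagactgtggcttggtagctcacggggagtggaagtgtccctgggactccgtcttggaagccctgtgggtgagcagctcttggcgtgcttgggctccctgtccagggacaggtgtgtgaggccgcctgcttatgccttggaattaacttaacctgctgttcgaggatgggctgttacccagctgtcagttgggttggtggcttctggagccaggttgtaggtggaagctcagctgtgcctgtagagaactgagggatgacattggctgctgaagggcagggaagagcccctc
Rnf43: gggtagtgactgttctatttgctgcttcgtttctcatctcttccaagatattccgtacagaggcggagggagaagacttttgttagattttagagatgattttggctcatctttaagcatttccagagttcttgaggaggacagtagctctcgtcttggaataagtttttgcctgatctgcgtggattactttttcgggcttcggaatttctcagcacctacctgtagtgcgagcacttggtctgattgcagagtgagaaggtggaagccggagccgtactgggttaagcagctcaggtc

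The window of Dkk1 held 3 TCF/LEF cores, beginning at -174, -117 and -98 from the start site. The window of Fzd7 held 1, at -129, and the internal window of Lef1 held 3, at -180, -146 and -120, with TTTATAG at -231. The windows of Wnt2b, Wls, Nkd1, the other 3 windows of Lef1 and both windows of Rnf43 held none of these letters. Of all 32851 promoter windows in the table, 16.0% held CTTTGA, 18.7% held CTTTGT, 31.2% held either core and 10.9% held TTTATNG. Of the 45 windows of members, 24.4% held either TCF/LEF core and 13.3% held TTTATNG. A match is a description of letters and not evidence of binding.

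The comparison asked which Wnt pathway genes differed between HOXA13 and CONTROL cells after differentiation. Wnt10a, Fzd7 and the receptor-removing ligase Rnf43 were higher in HOXA13 by log2 fold changes of 2.20, 1.30 and 2.23, and Wnt2b, Wnt5a, Dkk1, Dkk3, Wls, Lef1 and Nkd1 were lower by -2.98, -1.99, -2.96, -2.75, -1.26, -1.14 and -3.11. With edgeR's quasi-likelihood test and Benjamini-Hochberg adjustment over all genes, 0 of the 49 tested members passed an adjusted p of 0.05, where 0.309% of all 13600 tested genes did. The lowest edgeR adjusted p among them was 0.0521, for Rnf43, and 18 members (36.7%; 8 higher, 10 lower) had an unadjusted p under 0.05, where 14.1% of all tested genes did (8.05% higher, 6.02% lower). DESeq2, the tool of the study, called 10 of the 50 members for which it gave an adjusted p, the 3 higher and 7 lower genes named above, where it called 5.05% of all genes (3.11% higher and 1.94% lower). The HOXA13 and CONTROL values did not overlap for 14 members (28.6%), 9 higher and 5 lower, where 20.0% of all tested genes did not overlap (11.5% higher, 8.52% lower). The median log2 fold change was -0.22 over the members and -0.01 over all tested genes, and the median size of the change, whatever its direction, was 0.79 and 0.33. Without CONTROL replicate 2, edgeR called 15 members, 5 higher and 10 lower, where it called 7.92% of all genes as higher and 6.32% as lower. Leaving out any other single library gave 0 calls among the members in edgeR.

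**Figure D1:**
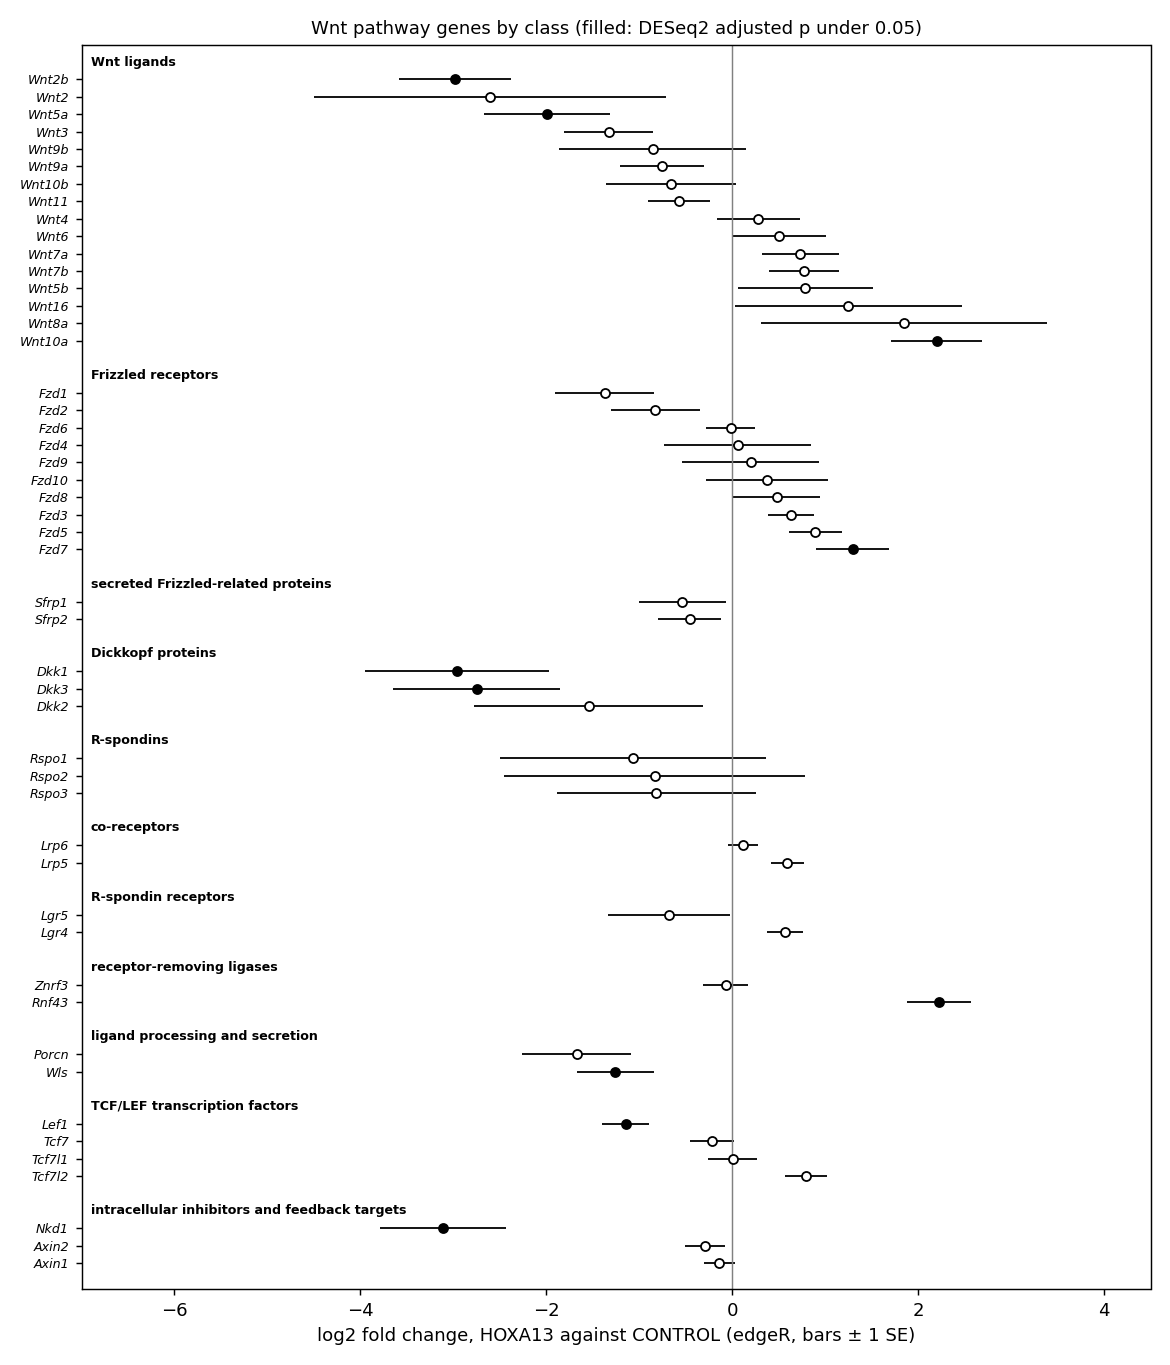
The log2 fold change of HOXA13 against CONTROL (horizontal axis, edgeR) is plotted for the 49 tested members, grouped by class, with bars of 1 SE, and filled points had a DESeq2 adjusted p under 0.05. The filled points lie at both ends of the ligand class, from Wnt2b at -2.98 to Wnt10a at 2.20, while all 3 Dickkopf genes lie below 0.

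Of the 19 ligand genes, 16 were tested, 8 with higher and 8 with lower mean values in HOXA13, and DESeq2 called 3. Wnt10a, a ligand of ectodermal appendages and epithelia, had 3.33, 12.2 and 6.08 CPM in the CONTROL libraries (replicates 1, 2 and 3) against 24.2, 29.9 and 45.2 CPM in the HOXA13 libraries in the same order. Each HOXA13 library was above each CONTROL library, and CONTROL replicate 2 was the closest to them. On the log2 scale the difference was 2.20 (SE 0.49), with an adjusted p of 0.110 in edgeR and 0.000766 in DESeq2, and adjusted p over 15 alternatives ran from 0.000766 to 0.514. Without CONTROL replicate 2 it was 2.80 (edgeR adjusted p = 0.00393). Wnt10a lies on chromosome 1 (74838090 to 74850753), where the median log2 fold change of 736 tested genes was 0.51. An alternative chosen after seeing the data offset each library by the median of its chromosome. With this offset the log2 fold change of Wnt10a was 1.63, with an edgeR adjusted p of 0.22 (unadjusted p = 0.0107).

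Wnt2b, a mesenchymal ligand that acts on neighbouring epithelia, had 27.4, 7.68 and 22.1 CPM in the CONTROL libraries against 1.69, 3.98 and 1.52 CPM in HOXA13. The groups did not overlap, and CONTROL replicate 2 lay nearest to the HOXA13 libraries. edgeR gave a log2 fold change of -2.98 (SE 0.61), with an adjusted p of 0.0954 in edgeR and 6.0e-05 in DESeq2 (6.0e-05 to 0.496 over 15 alternatives), and it was -3.37 without CONTROL replicate 2 (edgeR adjusted p = 0.00320) and -3.59 without HOXA13 replicate 2 (0.252). Wnt5a, the main ligand of the beta-catenin-independent branch, had 63.4, 10.3 and 35.5 CPM in the CONTROL libraries against 4.84, 16.1 and 6.49 CPM in HOXA13. Here the groups overlapped, since CONTROL replicate 2 lay below HOXA13 replicate 2. The log2 fold change was -1.99 (SE 0.68), with an adjusted p of 0.245 in edgeR and 0.0271 in DESeq2 (0.0119 to 0.655 over 15 alternatives). It was -2.44 without CONTROL replicate 2 (edgeR adjusted p = 0.0119), -1.34 without CONTROL replicate 1 (0.614) and -2.71 without HOXA13 replicate 2 (0.363). The order of the 3 CONTROL libraries for both genes, replicate 1, then 3, then 2, was also the order of the summed mesenchyme markers. In HOXA13 the order of these markers, replicate 2, then 3, then 1, was that of Wnt5a and not that of Wnt2b, and the part of these cells in the difference was not tested.

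Wnt7b and Wnt7a, ligands of epithelial cells, were named for having the highest mean CPM of their class over all 6 libraries. Wnt7b had 46.4, 145 and 110.5 CPM in the CONTROL libraries against 162, 145 and 208 CPM in HOXA13, and Wnt7a had 22.5, 80.5 and 76.7 CPM and 106, 94.3 and 98.2 CPM. The HOXA13 values lay above the CONTROL values for both genes, though for Wnt7b the gap between CONTROL replicate 2 and HOXA13 replicate 2 was under 1 CPM. The log2 fold changes were 0.77 and 0.73, with edgeR adjusted p-values of 0.411 and 0.496. Of the 10 epithelial markers, 8 were higher in HOXA13 without overlap, where 11.5% of all tested genes were. DESeq2 called Krt19 and Spint1 as higher (adjusted p = 0.000402 and 0.0253), and edgeR called 0. The summed epithelial markers were 1694, 5801 and 4047 CPM in the CONTROL libraries. Their order there, replicate 2, then 3, then 1, was that of Wnt7a, Wnt7b, Wnt10a, Wnt6 and Fzd5. Among the HOXA13 libraries, where these markers were highest in replicate 3 and lowest in replicate 1, Wnt10a alone of these 5 genes had their order. The part of epithelial cells in these differences was not tested. Per kilobase of exon, which allows levels of different genes to be compared, Wnt7b had 22.8 CPM in the CONTROL libraries against 38.9 CPM in HOXA13, and Wnt7a 18.9 and 31.4 CPM. By the mean of the CONTROL libraries Wnt3 stood first among the ligands on this scale, at 24.0 CPM per kilobase, with Wnt6 at 21.5. It had 9.55 CPM per kilobase in HOXA13. This place did not hold in CONTROL replicate 2, where Wnt3 had 23.5 CPM against 85.2 CPM for Wnt6, which has less exon length.

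Wnt3, a ligand needed for the primitive streak, had 100.1, 23.5 and 97.8 CPM in the CONTROL libraries against 27.4, 29.6 and 31.1 CPM in HOXA13. CONTROL replicates 1 and 3 were above all HOXA13 libraries and CONTROL replicate 2 was below them. On the log2 scale the difference was -1.33 (SE 0.48, edgeR adjusted p = 0.268, DESeq2 adjusted p = 0.0565), and without CONTROL replicate 2 it was -1.77 (edgeR adjusted p = 0.000803). Wnt6 had 23.2, 85.2 and 25.1 CPM in the CONTROL libraries against 72.4, 44.9 and 72.1 CPM in HOXA13, with CONTROL replicate 2 highest of the 6 libraries. Its log2 fold change was 0.50 (SE 0.50), 1.37 without CONTROL replicate 2 (edgeR adjusted p = 0.00933) and -0.08 with the chromosome offset, as Wnt6 is also on chromosome 1. Wnt4, active in kidney and reproductive tract, had 39.6, 25.8 and 81.4 CPM in the CONTROL libraries against 34.7, 72.3 and 71.2 CPM in HOXA13, a log2 fold change of 0.28 that was -0.04 without CONTROL replicate 2. Wnt9a, at -0.75 (SE 0.45), was at -1.16 without that library (edgeR adjusted p = 0.0120). Wnt8a, an early streak ligand, had at most 4.53 CPM and no count in HOXA13 replicate 2. The other 6 tested ligands had log2 fold changes between -2.60 and 1.25, with overlapping groups, and Wnt1, Wnt3a and Wnt8b were too low to test, Wnt8b having no count in any library.

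**Figure D2:**
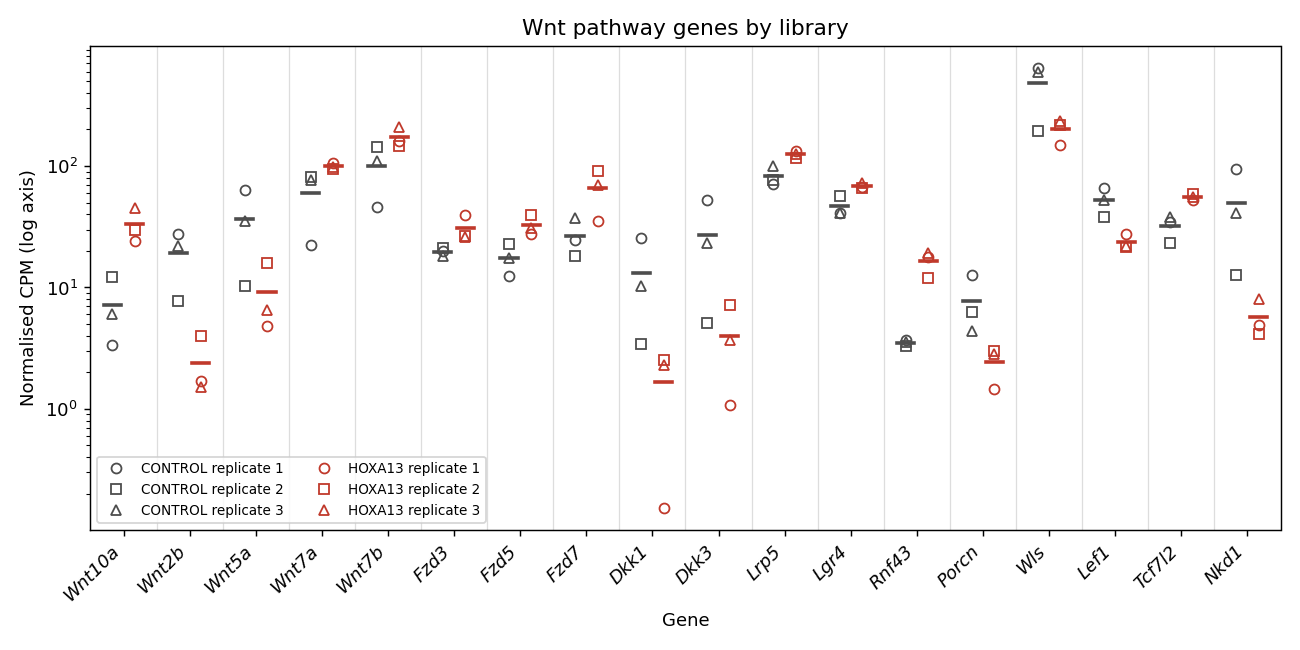
Normalised CPM on a log axis is plotted for the 18 members that DESeq2 called or whose groups did not overlap, with CONTROL libraries in grey, HOXA13 libraries in red, a symbol for each replicate number and a bar at each group mean. CONTROL replicate 2 (grey square) is the CONTROL value closest to HOXA13 for Wnt2b at 7.68 CPM and for Nkd1 at 12.6 CPM, while the 3 CONTROL values of Rnf43 lie together between 3.28 and 3.69 CPM.

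Among the 10 Frizzled receptors, the seven-pass receptors of Wnt proteins, 7 had higher and 3 lower mean values in HOXA13 (median log2 fold change 0.29). Fzd7, a receptor of stem cells and early endoderm, had 24.8, 18.3 and 37.1 CPM in the CONTROL libraries against 35.3, 91.7 and 70.1 CPM in HOXA13. CONTROL replicate 3 was above HOXA13 replicate 1, so the groups overlapped. edgeR gave a log2 fold change of 1.30 (SE 0.39), with an adjusted p of 0.191 in edgeR and 0.0326 in DESeq2 (0.0270 to 0.583 over 15 alternatives). Fzd5 had 12.4, 22.9 and 17.5 CPM in the CONTROL libraries against 27.5, 39.6 and 31.1 CPM in HOXA13, without overlap. Its log2 fold change was 0.90 (SE 0.29, edgeR adjusted p = 0.220) and 1.11 without CONTROL replicate 2 (edgeR adjusted p = 0.0298). Both receptors lie on chromosome 1, and with the chromosome offset their log2 fold changes were 0.75 and 0.33. The edgeR adjusted p-values of that fit were 0.472 and 0.715 (unadjusted 0.0836 and 0.287).

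Fzd3, a receptor of planar cell polarity, had 20.1, 21.2 and 18.1 CPM in the CONTROL libraries against 39.4, 26.3 and 26.1 CPM in HOXA13, a log2 fold change of 0.63 (SE 0.25, edgeR adjusted p = 0.307). The groups did not overlap. Chromosome 14, which carries it, had a median log2 fold change of 0.30 over 430 tested genes, and with the chromosome offset the log2 fold change of Fzd3 was 0.28. Wnt5a, on the same chromosome, was at -2.46 with this offset. Fzd2 had 111, 29.3 and 53.0 CPM in the CONTROL libraries against 22.4, 45.6 and 40.8 CPM in HOXA13, with the CONTROL values on both sides of the highest HOXA13 value. Fzd1 was at -1.37 (SE 0.53, edgeR adjusted p = 0.301) with all libraries and at -1.82 without CONTROL replicate 2 (edgeR adjusted p = 0.00317). The other 5 receptors had log2 fold changes between -0.02 and 0.48 and overlapping groups.

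The 5 tested genes of the Dickkopf and Sfrp families, secreted inhibitors, had lower mean values in HOXA13. Dkk1, which blocks the co-receptors Lrp5 and Lrp6, had 25.5, 3.44 and 10.3 CPM in the CONTROL libraries against 0.154, 2.52 and 2.30 CPM in HOXA13. The groups did not overlap, and the gap between CONTROL replicate 2 and HOXA13 replicate 2 was the narrowest. The log2 fold change was -2.96 (SE 0.99), with an adjusted p of 0.239 in edgeR and 0.0203 in DESeq2 (0.0203 to 0.639 over 15 alternatives). Leaving out CONTROL replicate 2 gave -3.41 (edgeR adjusted p = 0.0248), and leaving out CONTROL replicate 1 gave -2.05 (0.639). HOXA13 replicate 1, the lowest for Dkk1, also had the lowest summed mesenchyme markers, 46.0 CPM.

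Dkk3, a divergent member of the family, had 52.9, 5.12 and 23.2 CPM in the CONTROL libraries against 1.08, 7.21 and 3.70 CPM in HOXA13. CONTROL replicate 2 fell below HOXA13 replicate 2, so the groups overlapped. On the log2 scale the difference was -2.75 (SE 0.89), with an adjusted p of 0.225 in edgeR and 0.00991 in DESeq2 (0.00991 to 0.633 over 15 alternatives). It was -3.25 without CONTROL replicate 2 (edgeR adjusted p = 0.0117), -1.84 without CONTROL replicate 1 (0.589) and -3.51 without HOXA13 replicate 2 (0.380). For all 3 tested Dickkopf genes the order of the CONTROL libraries was that of the summed mesenchyme markers, replicate 1, then 3, then 2, and HOXA13 replicate 1 was lowest. The part of mesenchymal cells in these differences was not tested. Col1a1, the mesenchyme marker with the lowest log2 fold change (-3.37, edgeR adjusted p = 0.392), had 1163, 18.6 and 295 CPM in the CONTROL libraries against 1.38, 118 and 23.2 CPM in HOXA13, with overlap.

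Sfrp1 and Sfrp2, soluble proteins that bind Wnt ligands, gave no call in any fit. Sfrp1 had 8.09, 19.03 and 9.83 CPM in the CONTROL libraries against 9.38, 4.86 and 11.2 CPM in HOXA13. Sfrp2 had 31.9, 16.2 and 27.4 CPM in the CONTROL libraries against 24.2, 13.2 and 17.7 CPM in HOXA13. Both pairs of groups overlapped, at log2 fold changes of -0.54 (SE 0.47) and -0.46 (SE 0.34). Sfrp4, Sfrp5 and Dkk4 were too low to test.

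The R-spondins, which raise Wnt responses by drawing Rnf43 and Znrf3 off the receptors, were hardly detected. The 3 that were tested, Rspo1, Rspo2 and Rspo3, stayed at or below 3.60 CPM in every library, the highest being Rspo1 in CONTROL replicate 2, and Rspo4 was too low to test. Rspo1 changed sign, at -1.07 (SE 1.43) with all libraries and 0.38 without CONTROL replicate 2. Of the receptors for R-spondins, Lgr4 had 41.1, 57.2 and 41.2 CPM in the CONTROL libraries against 67.5, 66.5 and 72.6 CPM in HOXA13, without overlap. Its log2 fold change was 0.57 (SE 0.20, edgeR adjusted p = 0.251), and 0.73 without CONTROL replicate 2 (edgeR adjusted p = 0.0213). Lgr5, the marker of intestinal crypt stem cells, had 2.98, 5.12 and 2.25 CPM in the CONTROL libraries against 2.77, 2.23 and 1.46 CPM in HOXA13, with overlapping groups and a log2 fold change of -0.68 (SE 0.66).

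Rnf43, a ubiquitin ligase that removes Frizzled receptors from the membrane, was the member with the lowest p in edgeR. It had 3.69, 3.28 and 3.53 CPM in the CONTROL libraries against 17.98, 11.95 and 19.3 CPM in HOXA13. The CONTROL libraries, replicate 2 included, were close to each other, and every HOXA13 library was above all of them. edgeR gave a log2 fold change of 2.23 (SE 0.34), with an adjusted p of 0.0521 in edgeR and 1.1e-05 in DESeq2 (1.1e-05 to 0.425 over 15 alternatives). Without CONTROL replicate 2 the log2 fold change was 2.166 (edgeR adjusted p = 0.00757). Its level per kilobase of exon was 0.533 CPM in the CONTROL libraries against 2.501 CPM in HOXA13, below the 4.85 and 4.62 CPM per kilobase of its paralog Znrf3. Znrf3 had 47.7, 39.7 and 27.4 CPM in the CONTROL libraries against 33.0, 37.6 and 38.9 CPM in HOXA13, with a log2 fold change of -0.07 (SE 0.24) whose sign differed between fits. The co-receptor Lrp5 had 71.6, 77.0 and 100 CPM in the CONTROL libraries against 132, 116 and 126 CPM in HOXA13, without overlap, a log2 fold change of 0.59 (SE 0.18, edgeR adjusted p = 0.186). Lrp6 had 112, 90.9 and 101 CPM in the CONTROL libraries against 102, 123 and 105 CPM in HOXA13, with overlap and a log2 fold change of 0.12 (SE 0.16).

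Both genes of ligand maturation and export had lower mean values in HOXA13. Wls, the carrier of Wnt proteins to the cell surface, had 642, 194 and 599 CPM in the CONTROL libraries against 149, 219.5 and 233 CPM in HOXA13. CONTROL replicates 1 and 3 lay above the HOXA13 range and CONTROL replicate 2 within it. The CONTROL order was that of the summed mesenchyme markers, and the HOXA13 order was not. The log2 fold change was -1.26 (SE 0.42), with an adjusted p of 0.235 in edgeR and 0.0268 in DESeq2 (0.00198 to 0.575 over 15 alternatives), and without CONTROL replicate 2 it was -1.65 (edgeR adjusted p = 0.00198). Per kilobase of exon Wls was the highest of the members with an exon length in both groups, at 145 CPM in the CONTROL libraries against 60.6 CPM in HOXA13. Porcn, the acyltransferase of Wnt proteins, had 12.8, 6.24 and 4.35 CPM in the CONTROL libraries against 1.46, 2.99 and 2.85 CPM in HOXA13. Its groups did not overlap, and its log2 fold change was -1.67 (SE 0.59, edgeR adjusted p = 0.257).

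Of the 4 TCF/LEF transcription factors, Lef1 was lower and Tcf7l2 higher in HOXA13, in both cases without overlap. Lef1, often itself a target of the pathway, had 66.5, 38.4 and 52.3 CPM in the CONTROL libraries against 27.6, 21.6 and 22.1 CPM in HOXA13. On the log2 scale the difference was -1.14 (SE 0.25), with an adjusted p of 0.108 in edgeR and 0.00428 in DESeq2 (0.00308 to 0.513 over 15 alternatives), and without CONTROL replicate 2 it was -1.34 (edgeR adjusted p = 0.00517). Tcf7l2, the main family member of intestinal epithelium, had 34.4, 23.4 and 37.9 CPM in the CONTROL libraries against 52.1, 58.8 and 55.6 CPM in HOXA13. Its log2 fold change was 0.80 (SE 0.23, edgeR adjusted p = 0.173, DESeq2 adjusted p = 0.0658). Tcf7 had 72.7, 76.5 and 51.8 CPM in the CONTROL libraries against 73.2, 48.8 and 50.8 CPM in HOXA13, and Tcf7l1 had between 19.4 and 32.4 CPM over all libraries, with log2 fold changes of -0.22 and 0.00.

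The 3 intracellular inhibitors had negative log2 fold changes, and DESeq2 called Nkd1. Nkd1, which binds Dishevelled and is induced by the pathway, had 94.0, 12.6 and 41.1 CPM in the CONTROL libraries against 4.92, 4.16 and 8.003 CPM in HOXA13. No HOXA13 library reached the lowest CONTROL library, replicate 2. edgeR gave a log2 fold change of -3.11 (SE 0.68), with an adjusted p of 0.103 in edgeR and 1.8e-05 in DESeq2 (1.8e-05 to 0.496 over 15 alternatives). Leaving out CONTROL replicate 2 gave -3.58 (edgeR adjusted p = 0.00146), and leaving out CONTROL replicate 1 gave -2.25 (0.243). Among the CONTROL libraries its order was that of the summed mesenchyme markers, while among the HOXA13 libraries it was lowest in replicate 2, where these markers were highest (293 CPM). The part of these cells was not tested. Axin2, the most widely used readout of beta-catenin activity, had 256, 227 and 173 CPM in the CONTROL libraries against 223, 154 and 159 CPM in HOXA13. The groups overlapped at a log2 fold change of -0.29 (SE 0.21, edgeR adjusted p = 0.617), and no alternative called it. Chromosome 11, which carries it, had a median log2 fold change of -0.18 over 1046 tested genes, and with the chromosome offset Axin2 was at -0.15, and Tcf7, Wnt3 and Rnf43 on the same chromosome at -0.08, -1.15 and 2.36. Axin1, the scaffold of the destruction complex, had 121, 102 and 134 CPM in the CONTROL libraries against 97.8, 119.5 and 107 CPM in HOXA13, a log2 fold change of -0.14 (SE 0.17).

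**Figure D3:**
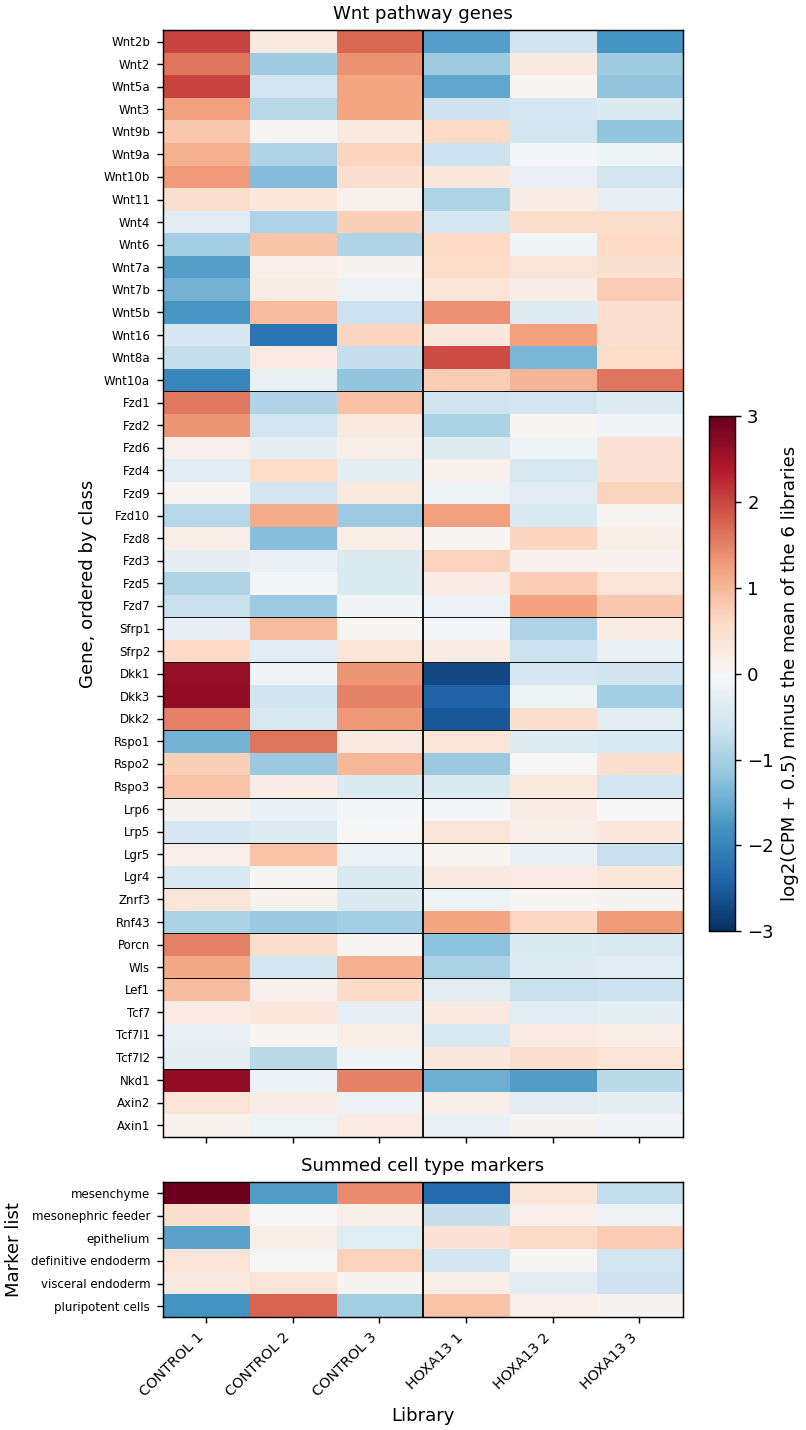
Each cell is log2(CPM + 0.5) minus the mean of the 6 libraries, for the 49 tested members ordered by class (upper panel) and for the summed marker lists (lower panel), from -3 in blue to 3 in red. For Dkk1, Dkk3 and Nkd1, CONTROL replicates 1 and 3 are red, as they are for the mesenchyme markers, whose sums were 1750 and 611 CPM there and 70.8 CPM in CONTROL replicate 2.

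The position of CONTROL replicate 2 was counted over the members. Of the 28 members with a negative log2 fold change, it was the lowest CONTROL library for 19 (67.9%), against 54.3% of all tested genes with a negative value. Of the 21 members with a positive log2 fold change it was the highest CONTROL library for 11 (52.4%), against 51.9% of all tested genes with a positive value. The full CONTROL order of the mesenchyme markers, replicate 1, then 3, then 2, was seen in 16 of the 28 (57.1%), against 32.5% of all tested genes with a negative value. Wnt2b, Wnt3, Wnt5a, Fzd1, Dkk1, Dkk3, Wls, Lef1 and Nkd1 were among these 16. Of these named genes, Wnt5a, Dkk1 and Dkk3 also had the HOXA13 order of the markers, replicate 2, then 3, then 1, and the others did not. Of the rest of the 16, Fzd2, Wnt9a and Dkk2 had it as well, and Wnt2, Wnt9b, Wnt10b and Sfrp2 did not. The share of all tested genes with both orders was not counted. The CONTROL order of the epithelial markers, replicate 2, then 3, then 1, was seen in 9 of the 21 (42.9%), against 34.1% of all tested genes with a positive value. The members that edgeR called as higher without CONTROL replicate 2 were Wnt10a, Wnt6, Fzd5, Lgr4 and Rnf43. Those it called as lower were Wnt2b, Wnt3, Wnt5a, Wnt9a, Fzd1, Dkk1, Dkk3, Wls, Lef1 and Nkd1. Fzd7, which DESeq2 called with all libraries, was not called in that fit, at 1.07 (edgeR adjusted p = 0.0942).

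**Figure D4:**
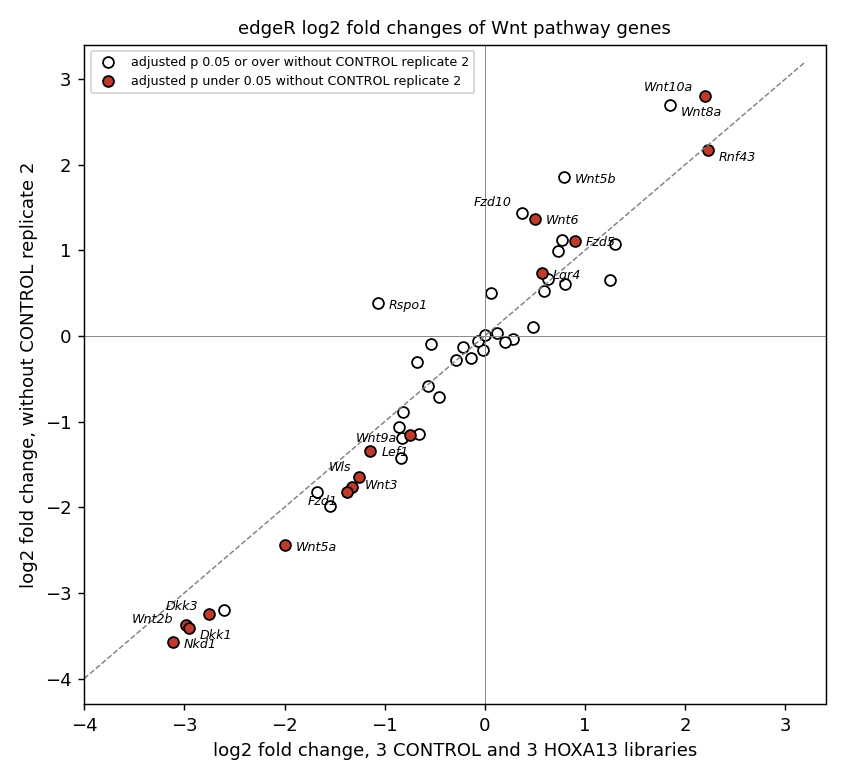
The edgeR log2 fold change without CONTROL replicate 2 (vertical axis) is plotted against that with all 6 libraries (horizontal axis) for the tested members, with filled points for an adjusted p under 0.05 without that library and a dashed line where both are equal. Of the called genes, all but Rnf43 lie farther from 0 without it, as Wnt6 does at 1.37 against 0.50, and Rnf43 lies near the line at 2.166 against 2.23.

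Of the wider pathway, 72 genes outside the rule were listed by role and 63 tested. In edgeR 0 passed an adjusted p of 0.05, and 11 (17.5%; 3 higher, 8 lower) had an unadjusted p under 0.05, near the 14.1% of all tested genes. DESeq2 called 6 of the 66 for which it gave an adjusted p, where it called 5.05% of all genes (3.11% higher and 1.94% lower). The 6 were Sox9 and Ryk as higher and Sp8, Tnfrsf19, Gpc3 and Gpc4 as lower. The groups did not overlap for 17 (27.0%), 7 higher and 10 lower, and the shares over all genes are those given for the members. None of the 8 genes of beta-catenin and its destruction complex was called by DESeq2, and their log2 fold changes lay between -1.02 (Amer1) and 0.21 (Ctnnb1). Without CONTROL replicate 2, Amer1 was at -1.31 (edgeR adjusted p = 0.0254).

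Gpc3, a heparan sulphate proteoglycan that binds Wnt proteins, had 60.1, 22.6 and 40.4 CPM in the CONTROL libraries against 4.69, 6.62 and 9.34 CPM in HOXA13. The groups were well apart, at a log2 fold change of -2.57 (SE 0.42), with an adjusted p of 0.0619 in edgeR and 6.5e-07 in DESeq2 (6.5e-07 to 0.328 over 15 alternatives). In CONTROL it too had the order of the summed mesenchyme markers, and in HOXA13 it did not. Its paralog Gpc4 was at -1.11 (SE 0.32), also without overlap, with 48.7 to 122 CPM in the CONTROL libraries against 36.7 to 47.0 CPM in HOXA13. Sp8 and Tnfrsf19, both reported targets of beta-catenin, were at -1.79 (SE 0.37) and -1.41 (SE 0.27). Sp8 had 20.8, 19.8 and 18.3 CPM in the CONTROL libraries against 3.84, 8.44 and 4.67 CPM in HOXA13, so that CONTROL replicate 2 did not stand apart for it. Tnfrsf19 had 97.3, 56.9 and 84.75 CPM in the CONTROL libraries against 32.5, 22.7 and 34.7 CPM in HOXA13. Tnfrsf19 and Gpc4 had the CONTROL order of the summed mesenchyme markers and not their HOXA13 order. Sox9, a transcription factor of crypt and progenitor cells, had 22.2, 20.6 and 20.3 CPM in the CONTROL libraries against 36.0, 80.7 and 69.4 CPM in HOXA13, a log2 fold change of 1.56 (SE 0.30). Ryk, a Wnt receptor of the kinase-like type, was at 0.73 (SE 0.20), with 144 to 228 CPM in the CONTROL libraries against 287 to 339 CPM in HOXA13. DESeq2 adjusted p-values of Gpc4, Sp8, Tnfrsf19, Sox9 and Ryk were 0.0241, 0.000986, 0.00020, 0.000466 and 0.0422, against edgeR adjusted p-values of 0.178, 0.0990, 0.0835, 0.0899 and 0.154. Without CONTROL replicate 2, edgeR called 15 of the 63 genes of the list tested in that fit, 6 higher and 9 lower. Of all genes it called 7.92% as higher and 6.32% as lower there. The 6 genes that DESeq2 called were among the 15.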

How the data were processed

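Poly(A) RNA of 6 samples was sequenced from directional libraries. The deposited files hold raw read counts per gene, made by the authors with bcl2fastq 2.17, TopHat2 2.0.14 and HTSeq 0.6.1p1 on mm9, per the labels' processing notes. The annotation, the strand option and the handling of reads with several matches are not given in the sources used here, so counts of overlapping or near-identical genes are uncertain. Counts were tested in edgeR 4.0.16 (R 4.3.3; TMM scaling, quasi-likelihood test, Benjamini-Hochberg adjustment) after filterByExpr (minimum count 10, minimum total 15), which left 13600 of 24393 genes, on the 3 CONTROL and 3 HOXA13 samples with group as the only term. Intervals are SE, taken in edgeR as the size of the log2 fold change divided by the square root of the test's F statistic. They are thus derived from the same test as the p-values. The floor of 3 counts covers counting error only. Alternatives were DESeq2 1.42.0, limma 3.58.1 voom with sample quality weights, edgeR 4's newer method, RLE and upper quartile scaling, other filters, a replicate block, leaving out each library, and a chromosome offset chosen after seeing the data. The code was tested on simulated data. Positions and exon lengths come from GENCODE M1 (mm9). Members and gene lists were chosen with earlier results of these data known. A gene was named where DESeq2 or edgeR called it or where the groups did not overlap. It was also named where it had one of the 2 highest mean CPM values of its class, or where the study names it. The study names Wnt3, Wnt4, Wnt6, Wnt8a, Lef1 and Axin2 for HOXA13 in undifferentiated cells. It names Lgr5 for endoderm against undifferentiated cells, so both are other comparisons than this one. Of the wider list, those that DESeq2 or edgeR called were named. Wnt9a, Fzd1, Amer1, Ctnnb1, T, Sp5 and Cdx1 were added after their values were seen.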

Additional observations from a re-analysis of the deposited data

How the results depend on the processing

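Among the members, edgeR called 0 of 49 with all libraries. The count was 10 with DESeq2, 17 with limma voom and sample quality weights, 1 with the newer edgeR method, 3 with no filter, and between 0 and 15 when a single library was left out, the 15 being without CONTROL replicate 2. For the wider pathway the counts were 0 in edgeR, 6 with DESeq2, 15 with voom, 1 with the newer edgeR method, 3 with no filter, and between 0 and 15 when a library was left out, again 15 without CONTROL replicate 2. RLE scaling, upper quartile scaling, a mean of at least 50 counts and the chromosome offset gave 0 calls in both lists. Non-overlapping members numbered 14, and between 13 and 30 with a library left out, with 30 of 51 (58.8%) without CONTROL replicate 2, where 48.7% of all tested genes did not overlap. Over all genes, edgeR called 42, DESeq2 722, voom 2101, the newer edgeR method 106, no filter 163, a mean of at least 50 counts 9, the chromosome offset 1 and the fit without CONTROL replicate 2 2006. With the replicate number as a block, 0 members and 0 genes in all were called, with 1392 genes at an unadjusted p under 0.05. Deviations of same-numbered libraries had correlations of -0.21, -0.27 and 0.10. With 3 libraries per group these deviations are tied to each other, so they cannot show whether the numbers pair the samples.

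The log2 fold change changed sign for Wnt4 (-0.04 to 0.84 with a library left out), Wnt6 (-0.08 with the chromosome offset), Rspo1 (0.47 with voom, -1.68 to 0.38 with a library left out) and Znrf3 (0.16 with voom, 0.084 with the chromosome offset, -0.28 to 0.10 with a library left out). No other gene named by the rule changed sign under these alternatives. The cause of these changes was not tested, except that fewer samples or genes entered some fits. Low counts limited the R-spondins, Wnt8a and the 7 untested members, whose highest values in any library were 3.60, 4.53 and 1.54 CPM.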

Other observations

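The Wnt genes form close pairs in the mouse genome, and 4 such pairs were present among the members (mm9). Wnt10a and Wnt6, on the same strand of chromosome 1 and 6196 bases apart, had log2 fold changes of 2.20 and 0.50. Wnt3 and Wnt9b, on opposite strands of chromosome 11 and 24328 bases apart, had -1.33 and -0.86. Of the pairs Wnt3a and Wnt9a on chromosome 11 and Wnt1 and Wnt10b on chromosome 15, only Wnt9a and Wnt10b had enough counts to be tested, at -0.75 and -0.66.

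T, the mesoderm transcription factor and a Wnt target of the primitive streak, was singled out after its values were seen. It had 0.284, 32.9 and 0.825 CPM in the CONTROL libraries against 10.8, 2.69 and 6.18 CPM in HOXA13. The CONTROL libraries fell on both sides of the HOXA13 range, with replicates 1 and 3 near the floor and replicate 2 highest of all. Its log2 fold change was -0.79 (edgeR adjusted p = 0.858, SE 1.39) with all libraries and 3.53 (edgeR adjusted p = 0.0298, SE 0.88) without CONTROL replicate 2. Sp5, another direct Wnt target of the streak, had 6.38, 43.1 and 8.85 CPM in the CONTROL libraries against 23.6, 8.03 and 9.28 CPM in HOXA13, and its log2 fold change was -0.51 with all libraries and 0.82 without CONTROL replicate 2, without a call in either fit. Cdx1 had 0.993, 35.0 and 6.83 CPM in the CONTROL libraries against 17.3, 18.7 and 13.6 CPM in HOXA13, at 0.21 and 2.06, also without a call. In CONTROL replicate 2 the summed pluripotency markers were also highest, at 1379 CPM, and their part in these values was not tested.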
